A study of Homo sapiens with 5 samples.

Results

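Aminoacyl-tRNA synthetases are the enzymes that load each transfer RNA with its amino acid. The genes were chosen by symbol: a 1-letter amino acid code followed by ARS and an optional 1 or 2, together with EPRS1, QARS1, FARSA, FARSB and TARS3. This rule found 38 of the 60623 genes in the count table. Symbols ending in 2 were taken as the mitochondrial class, which gave 17 genes, and the other 21 as the cytosolic class. Among the cytosolic class, GARS1 and KARS1 are known to serve both compartments. Of the 38, 37 passed the expression filter, and VARS2 was the exception.

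RNA-seq had been made of HCT116 cells, an established human colorectal carcinoma line, in 2 libraries of LT4-treated cells and 3 control libraries. The study's design text names LT4 as the agent whose effect on colorectal cancer cells was asked about, while its title names 4-Acetylantrocamol LT3, and dose, time and the content of the control are not given in the labels. Every library came from the same cell line, and the labels do not say whether libraries of a group are separate cultures. The p-values therefore rest on library-to-library spread alone, and that spread may be technical. LT4 libraries carry the numbers 1 and 3, and control libraries the numbers 1 to 3. The table's headers give the LT4 libraries a group name each and the controls a shared one. Whether the LT4 libraries are replicates of the same condition is not stated. They were pooled as a group here, and the LT4 means, SDs, fold changes and p-values from all 5 libraries assume that they are.

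Library totals were 9840467 counts in LT4 library 1 and 2281912 in LT4 library 3, against 11653484 to 12296916 in the controls. The share of counts on mitochondrially encoded genes was 5.73% in LT4 library 1 and 9.92% in LT4 library 3, against 5.83% to 6.64% in the controls. Keratin genes of colorectal epithelium were abundant (KRT8 averaged 6783 CPM in LT4 and 7592 CPM in control, CPM being the count scaled to a library of 1000000), and CDX2 was present at 26.9 CPM in LT4 and 31.6 in control, while VIL1 had at most 4 counts in any library. The leukocyte markers PTPRC and CD3E, the hepatocyte marker TTR and the fibroblast marker DCN had 0 counts in all 5 libraries. Other markers on those lists were present at low levels, among them the fibroblast gene COL1A1 at 11.6 CPM in LT4 and 15.7 in control, the hepatocyte gene SERPINA1 at 7.25 CPM in LT4 and 7.02 in control, and the leukocyte gene ITGAM with 2 to 7 counts per library.

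In the cytosol, the synthetases supply charged tRNA to the ribosomes that translate nuclear messages. A group of them, among them EPRS1, IARS1, LARS1, MARS1, QARS1, RARS1 and KARS1, assembles into the multisynthetase complex on the scaffold proteins AIMP1, AIMP2 and EEF1E1. Mitochondria use a separate set of nuclear-encoded synthetases for the few proteins made from mitochondrial DNA. Many cytosolic synthetase genes are known targets of ATF4, the transcription factor of the integrated stress response and the amino acid response, and mitochondrial ones mostly are not.

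Over the cytosolic synthetases, LT4 cells had more genes above than below the control range, and over the mitochondrial ones they did not, though no single gene passed the test with all 5 libraries. Of the 21 cytosolic genes, 12 had more CPM in both LT4 libraries than in any of the 3 controls (57.1%, where the same held for 17.3% of all 13833 genes tested), and 2, KARS1 and FARSB, had less in both (against 16.5% of all genes). Of the 16 mitochondrial genes tested, 0 stood above all controls in both LT4 libraries and 3 stood below, namely HARS2, NARS2 and TARS2. The median log2 fold change was 0.20 over the cytosolic class and -0.00 over the mitochondrial class, beside -0.00 over all genes tested. Since these are bulk cultures, more RNA per cell and a changed mix of cells cannot be told apart.

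No member passed the test across all 5 libraries. By edgeR's quasi-likelihood test with Benjamini-Hochberg adjustment over all genes, 0 of 21 cytosolic and 0 of 16 mitochondrial genes had an adjusted p under 0.05, in a comparison that called 0.137% of all genes (0.123% higher, 0.0145% lower). DESeq2 and limma voom also called 0 in either class. At an unadjusted p under 0.05, 8 cytosolic genes were higher and 0 lower, and 0 mitochondrial genes were higher or lower, where 8.58% of all genes were higher and 5.28% lower. The smallest adjusted p among the members was 0.126, for CARS1.

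**Figure D1:**
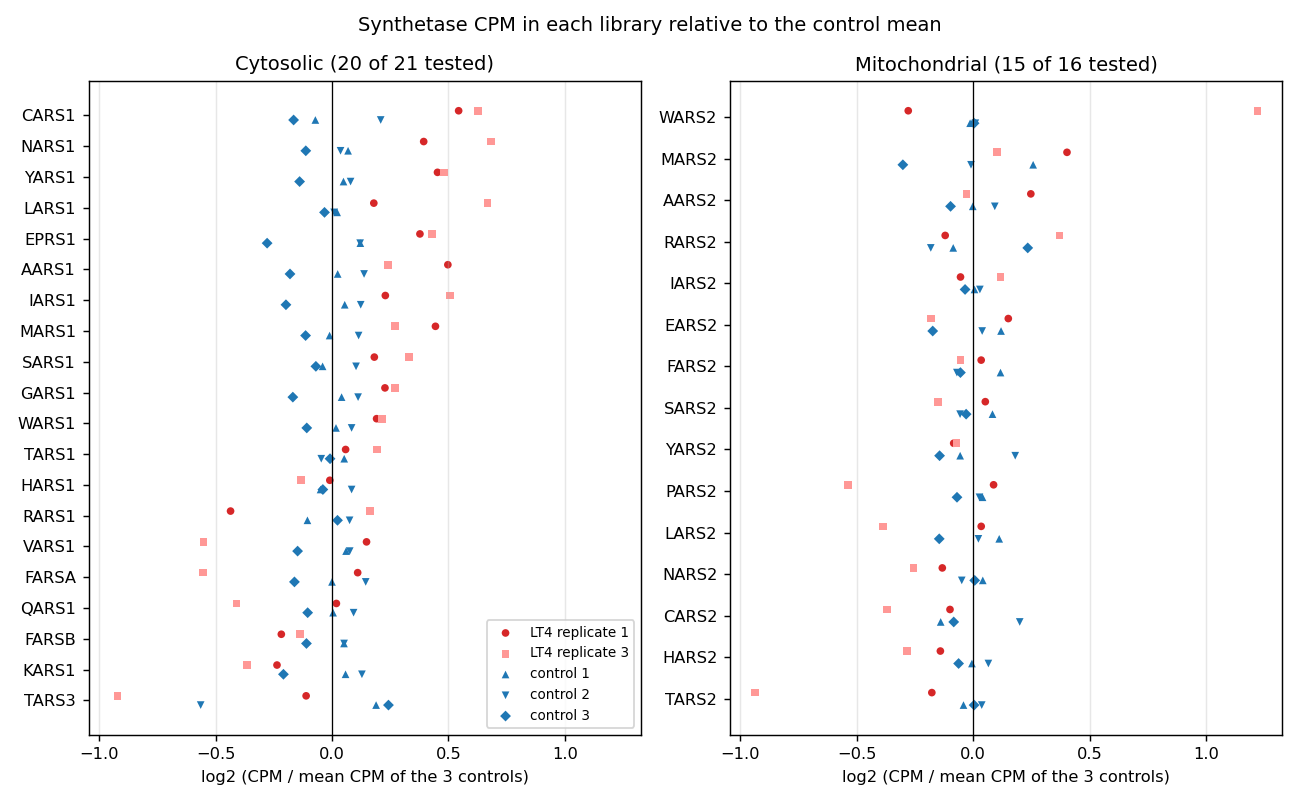
Level of the tested synthetase genes in each library, 1 gene of each class left out, relative to the mean of the 3 control libraries, on a log2 scale from TMM-scaled CPM, for the cytosolic and the mitochondrial class. LT4 libraries are drawn beside the controls, and 12 of the 21 cytosolic genes have both LT4 points above all 3 control points, against 0 of 16 mitochondrial genes.

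The 8 cytosolic genes with the smallest p-values are enzymes for cysteine, asparagine, tyrosine, leucine, glutamate with proline, alanine, isoleucine and methionine. CARS1, the cysteinyl-tRNA synthetase (GRCh38 chromosome 11, 3000922 to 3057613), had 99.4 and 105 CPM in LT4 and 64.9, 78.8 and 60.8 CPM in control. NARS1, which charges asparagine tRNA (chromosome 18, 57600656 to 57622213), had 115 and 140 CPM in LT4 and 91.6, 89.6 and 80.8 CPM in control. YARS1, the tyrosyl enzyme (chromosome 1, 32775237 to 32818153), had 327 and 333 CPM in LT4 and 247, 252 and 217 CPM in control. In all 3 genes both LT4 libraries lay above every control, and for YARS1 the LT4 libraries were close together.

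As means, CARS1 was 102 ± 4.15 CPM in LT4 (SD, n = 2) and 68.2 ± 9.44 CPM in control (SD, n = 3), with a log2 fold change of 0.58 (SE 0.15; edgeR adjusted p = 0.126). NARS1 was 127 ± 17.9 CPM in LT4 and 87.3 ± 5.76 CPM in control, a log2 fold change of 0.54 (SE 0.15; edgeR adjusted p = 0.139). YARS1 was 330 ± 4.43 CPM in LT4 and 239 ± 19.2 CPM in control, a log2 fold change of 0.47 (SE 0.13; edgeR adjusted p = 0.151). These correspond to 1.50-fold, 1.45-fold and 1.38-fold higher mean levels, none of them past the threshold.

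LARS1, the leucyl enzyme of the multisynthetase complex (chromosome 5, 146113038 to 146182660), had 87.2 and 122 CPM in LT4 and 78.2, 77.5 and 75.3 CPM in control. IARS1, the isoleucyl enzyme of the same complex (chromosome 9, 92210207 to 92293756), had 186 and 226 CPM in LT4 and 165, 173 and 138 CPM in control. EPRS1, a fused glutamyl-prolyl enzyme (chromosome 1, 219968601 to 220046658), had 144 and 149 CPM in LT4 and 121, 120 and 91.3 CPM in control. In LARS1 and IARS1 the higher of the LT4 libraries was number 3, and in all 3 genes the groups did not overlap. The log2 fold changes were 0.43 for LARS1 (SE 0.16), 0.37 for IARS1 (SE 0.15) and 0.40 for EPRS1 (SE 0.15), with edgeR adjusted p of 0.265, 0.299 and 0.276.

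AARS1, the alanyl enzyme (chromosome 16, 70252295 to 70289543), had 466 and 389 CPM in LT4 and 335, 363 and 291 CPM in control. MARS1, the methionyl enzyme (chromosome 12, 57475445 to 57517569), had 428 and 379 CPM in LT4 and 312, 340 and 290 CPM in control. Here library 1 was the higher of the LT4 libraries, again without overlap with the controls. The log2 fold change was 0.38 for AARS1 (SE 0.14; edgeR adjusted p = 0.266) and 0.36 for MARS1 (SE 0.13; edgeR adjusted p = 0.259). On the opposite strand, the MARS1 gene overlaps the protein-coding gene ARHGAP9 by 13370 bases and DDIT3, a stress-response gene, by 982. Whether counting used strand is not given in the sources used here. DDIT3 had 13.9 and 19.1 CPM in LT4 and 8.77, 9.11 and 13 CPM in control.

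The other 4 cytosolic genes above all controls differed by less. SARS1, the seryl enzyme, had a log2 fold change of 0.26, GARS1 0.25, WARS1, the tryptophanyl enzyme, 0.20, and TARS1, the threonyl enzyme, 0.12. GARS1, whose product charges glycine tRNA in cytosol and mitochondria, had 159 and 164 CPM in LT4 and 139, 147 and 121 CPM in control (edgeR adjusted p = 0.453). TARS1 cleared the controls narrowly, with 148 and 162 CPM in LT4 and 147, 137 and 141 CPM in control.

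KARS1, the lysyl enzyme that also serves both compartments, had lower values, with 259 and 237 CPM in LT4 and 317, 333 and 264 CPM in control (log2 fold change -0.30; edgeR adjusted p = 0.387). FARSB, the beta subunit of phenylalanyl-tRNA synthetase, had 73.6 and 77.9 CPM in LT4 and 88.7, 88.7 and 79.3 CPM in control (log2 fold change -0.18; edgeR adjusted p = 0.601). Its partner subunit FARSA had 317 and 200 CPM in LT4 and 294, 325 and 263 CPM in control, with a log2 fold change of -0.17. For KARS1 and FARSB both LT4 libraries lay below the controls, while for FARSA the LT4 libraries lay on either side of most of them. TARS3, a second cytosolic threonyl enzyme, was low everywhere, at 5.34 and 3.05 CPM in LT4 and 6.58, 3.90 and 6.83 CPM in control (log2 fold change -0.31; edgeR adjusted p = 0.715).

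Promoter sequences are shown for the synthetase genes that hold a short word known from amino acid response genes. RefSeq windows (GRCh38.p14, 250 bases before to 50 after each annotated start) were matched by Entrez gene ID, with agreeing symbols, for 30 members. Those with none matched include AARS2, LARS1, TARS3, VARS1, VARS2 and YARS1. In 35 of the 39 windows of members, bases 6 to 45 after the start were found in a GENCODE transcript of the gene. Both strands were searched for TGATGNAA, a core of the response elements known to bind ATF4 with C/EBP proteins, and for TGATGCAA, which is contained in it. These letters were chosen with the fold changes known. The 8 members with a match are given as 48-base stretches on the strand that reads TGATGNAA, with the match in capitals.
AARS1 (chr16:70289666-70289713, + strand): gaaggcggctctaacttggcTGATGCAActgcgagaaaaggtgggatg
CARS1 (chr11:3057398-3057445, + strand): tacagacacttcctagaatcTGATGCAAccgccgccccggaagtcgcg
GARS1 (chr7:30594825-30594872, - strand): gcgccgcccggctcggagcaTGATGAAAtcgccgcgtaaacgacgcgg
IARS1 (chr9:92293683-92293730, + strand): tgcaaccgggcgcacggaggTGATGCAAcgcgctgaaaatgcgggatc
MARS1 (chr12:57488044-57488091, - strand): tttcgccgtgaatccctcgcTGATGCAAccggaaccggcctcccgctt
NARS1 (chr18:57621795-57621842, - strand): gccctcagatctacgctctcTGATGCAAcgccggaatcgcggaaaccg
TARS1 (chr5:33440947-33440994, - strand): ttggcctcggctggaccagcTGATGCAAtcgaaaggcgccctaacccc
YARS2 (chr12:32756067-32756114, - strand): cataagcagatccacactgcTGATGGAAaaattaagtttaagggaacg

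TGATGNAA was in the window of 7 of 16 cytosolic genes and 1 of 14 mitochondrial genes with a window, and in 4.46% of the 27305 genes of the promoter table. TGATGCAA was in 6 of 16 cytosolic genes and 0 of 14 mitochondrial genes, and in 1.08% of all genes of that table. Among tested genes with a window, 2.50% held TGATGNAA and 0.73% held TGATGCAA. In CARS1, MARS1 and TARS1 the match began within 4 bases of the annotated start, in NARS1 14 bases after it, in IARS1 13 and in GARS1 33 bases before it. AARS1 and the mitochondrial YARS2 held it farther off, 187 and 197 bases before the start. Starts are those of RefSeq, and for every gene with a match this start lies inside the GENCODE span, farthest for MARS1. The distances therefore depend on the annotation used.

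All 7 cytosolic genes with TGATGNAA stood above all controls in both LT4 libraries, with a median log2 fold change of 0.37. Of the 9 cytosolic genes with a window and no match, 3 stood above and 2 below, with a median of -0.15. Of the 5 without a window, 2 stood above, LARS1 and YARS1, with a median of 0.08. YARS2, the mitochondrial gene with a match, had a log2 fold change of -0.08. Across all tested genes with a window, the 256 with TGATGNAA had a median log2 fold change of 0.15, with 33.6% above and 12.9% below all controls, while those without it had a median of 0.00, with 17.7% above and 16.5% below. A match is a description of these letters in these windows and no binding was measured.

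**Figure D2:**
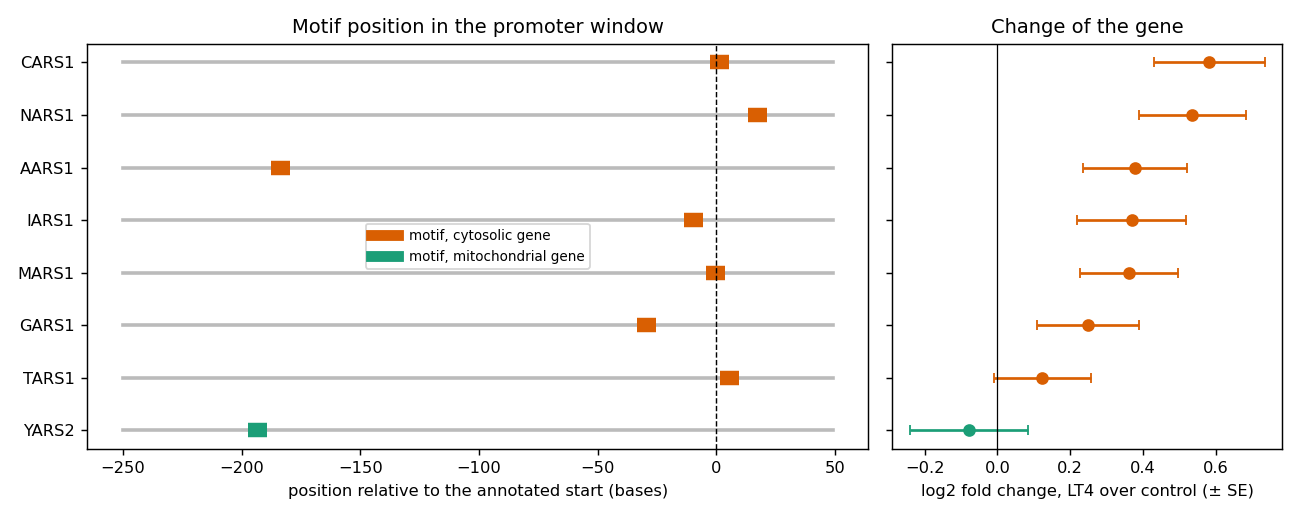
Position of TGATGNAA in the promoter windows of the synthetase genes that hold it, in bases from the annotated start, beside each gene's log2 fold change of LT4 over control. The 7 cytosolic genes with a match have log2 fold changes of 0.12 to 0.58, and YARS2 has -0.08.

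Each LT4 library was also compared alone with the 3 controls. These comparisons share their controls, and the spread of the single LT4 library is taken to equal that of the controls. LT4 library 1 alone called 3.7% of all genes (2.47% higher, 1.23% lower) and LT4 library 3 alone called 4.12% (2.54% higher, 1.58% lower). CARS1 and YARS1 rose in both, by log2 fold changes of 0.55 and 0.45 in LT4 library 1 and of 0.63 and 0.48 in LT4 library 3 (edgeR adjusted p = 0.0302 and 0.0482, then 0.0264 and 0.0465). AARS1 rose in LT4 library 1, by 0.50 (edgeR adjusted p = 0.0301), and had 0.24 in LT4 library 3 (edgeR adjusted p = 0.374).

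LT4 library 3 called 7 cytosolic genes. Beside CARS1 and YARS1, NARS1 rose by 0.68, LARS1 by 0.67 and IARS1 by 0.51 on the log2 scale, with edgeR adjusted p of 0.00751, 0.0094 and 0.0465. The same genes had 0.40, 0.18 and 0.23 in LT4 library 1, without a call (edgeR adjusted p = 0.115, 0.559 and 0.403). FARSA and VARS1, the valyl enzyme, each fell by 0.55 in LT4 library 3 (edgeR adjusted p = 0.037 and 0.0252), while LT4 library 1 gave 0.11 and 0.15 (edgeR adjusted p = 0.731 and 0.617).

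VARS1 had 685 and 421 CPM in LT4 and 644, 651 and 558 CPM in control, so that 1 LT4 library lay above and the other below all controls. QARS1, the glutaminyl enzyme, was split less, with 418 and 311 CPM in LT4 and 414, 440 and 384 CPM in control. RARS1, the arginyl enzyme, was split in the opposite sense, with 46 and 69.6 CPM in LT4 and 57.8, 65.6 and 63.3 CPM in control. LT4 library 3, in which FARSA, VARS1 and QARS1 were low, is also the library with the fewest counts and the highest mitochondrially encoded share, and the part of these in the result was not tested.

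In the authors' deposited table, which compares each LT4 library with the controls by a test the sources used here do not name, CARS1 was higher in both, with a log2 fold change of 0.56 (adjusted p = 0.0258) for LT4 library 1 and 0.61 (adjusted p = 0.0369) for LT4 library 3. YARS1 was past 0.05 in neither comparison of the authors' deposited table (adjusted p = 0.0635 and 0.0937), and IARS1 was not in that of LT4 library 3 (adjusted p = 0.0806). The authors' deposited table had 2 cytosolic genes higher and 0 lower for LT4 library 1, and 3 higher and 2 lower for LT4 library 3, where 4.44% and 3.31% of its genes were higher and 1.65% and 1.53% lower. It had 0 mitochondrial genes past 0.05 in either direction.

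**Figure D3:**
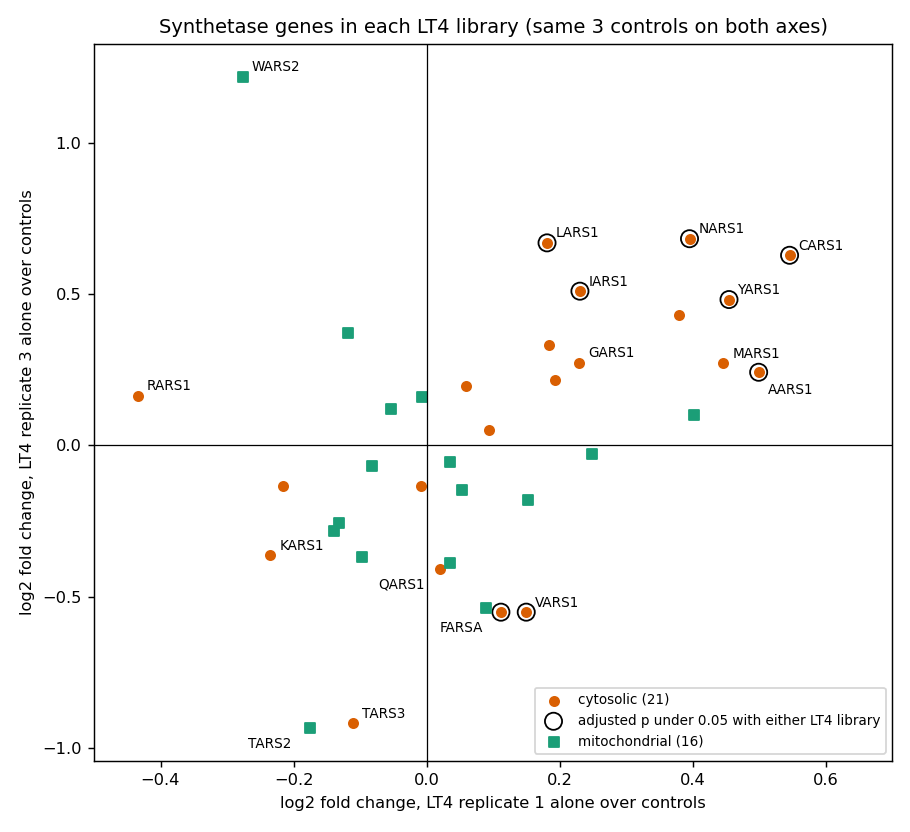
Log2 fold change over the 3 controls in LT4 library 1 (x axis) and in LT4 library 3 (y axis) for each tested synthetase gene, by class, with the same controls in both. CARS1 and YARS1 passed the threshold in each library alone, and FARSA and VARS1 lie below 0 in LT4 library 3 only.

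The mitochondrial class was without a call in each single-library comparison as well. WARS2, the mitochondrial tryptophanyl enzyme, had the highest fold change of the class, with 2.77 and 7.83 CPM in LT4 and 3.33, 3.38 and 3.37 CPM in control. That log2 fold change of 0.38 (SE 0.40; edgeR adjusted p = 0.711) rests on 18 counts in LT4 library 3, and in LT4 library 1 alone the value was -0.28. MARS2, the mitochondrial methionyl enzyme, had 16.6 and 13.5 CPM in LT4 and 15, 12.5 and 10.2 CPM in control, a log2 fold change of 0.30. AARS2, the alanyl enzyme, had 32.2 and 26.5 CPM in LT4 and 27.1, 28.9 and 25.3 CPM in control, a log2 fold change of 0.14. In all 3 the groups overlapped.

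At the lower end, TARS2, the threonyl enzyme, had 19.9 and 11.7 CPM in LT4 and 21.9, 23.1 and 22.6 CPM in control, a log2 fold change of -0.40 (SE 0.20; edgeR adjusted p = 0.399). Its value was -0.94 in LT4 library 3 alone (edgeR adjusted p = 0.0558) and -0.18 in LT4 library 1 alone. HARS2, the histidyl enzyme, had 72 and 65.3 CPM in LT4 and 79.1, 83.1 and 76 CPM in control, a log2 fold change of -0.20. CARS2, the cysteinyl enzyme, had 25.7 and 21.3 CPM in LT4 and 25, 31.7 and 26 CPM in control, also -0.20. TARS2 and HARS2 were below every control in both LT4 libraries and CARS2 overlapped with them. The other 10 tested mitochondrial genes had log2 fold changes between -0.17 for NARS2 and 0.07 for RARS2. After counts were thinned at random to equal depth, RARS2 had 0.85, SARS2 -0.30, MARS2 0.60 and TARS2 -0.65 on the log2 scale, without a call. The thinning was a single random draw and was not repeated. It left fewer counts in every library but LT4 library 3, so these values also carry the error of the draw.

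Precision differed between the classes. LT4 library 3 held 17 (SARS2) to 160 (EARS2) counts for the tested mitochondrial genes, and standard errors of the log2 fold change ran from 0.14 to 0.40 in that class, against 0.13 to 0.34 in the cytosolic class. VARS2, the mitochondrial valyl enzyme, had 0 and 1 counts in LT4 and 1, 2 and 3 counts in control, at or under the 3 counts that set the limit of detection here, so no fold is given. Several members overlap other genes and may share reads with them: on the opposite strand YARS1 overlaps S100PBP by 1387 bases, KARS1 overlaps TERF2IP by 858 and CARS1 overlaps its antisense gene CARS1-AS1 by 12252, and on the same strand SARS2 overlaps another protein-coding annotation by 15493. VARS2 overlaps the protein-coding gene GTF2H4 on the same strand by 5865 bases, and the part of this in its low counts was not tested.

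Per library, the cytosolic median relative to the control mean was 0.18 and 0.22 on the log2 scale in LT4 and 0.04, 0.08 and -0.11 in control. The mitochondrial median was -0.03 and -0.11 in LT4 and 0.02, 0.02 and -0.07 in control. The gap between the classes was thus 0.21 and 0.33 in LT4, against 0.02, 0.06 and -0.05 in control. Both LT4 libraries lay outside the range of the controls for the gap. Each control is part of the mean it is set against and the LT4 libraries are not, which narrows the control range. Without LT4 library 1 the difference of the class medians was 0.33, against 0.21 with all libraries. A further setting removed from each library a trend with merged exon length of its log2 CPM relative to the gene mean. With all libraries the difference was then 0.13.

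**Figure D4:**
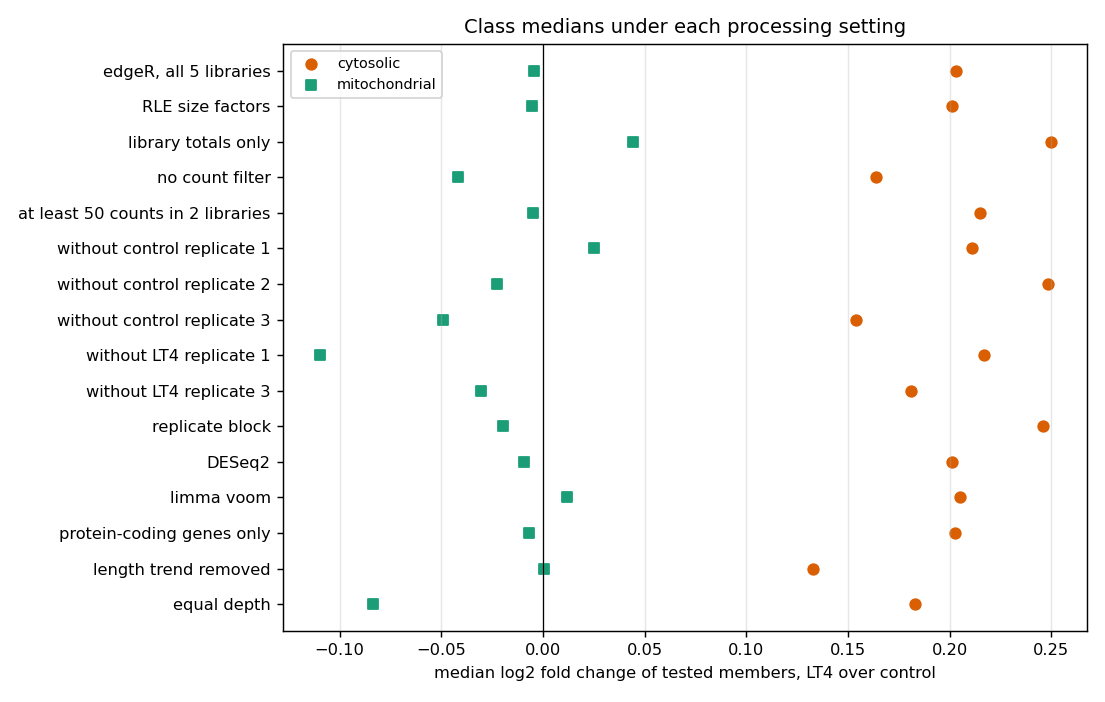
Median log2 fold change of LT4 over control for the cytosolic and the mitochondrial class under each way of processing the counts, left-out libraries included. The cytosolic median stays between 0.13 and 0.25, and the mitochondrial one between -0.11 and 0.04.

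Pairs of enzymes for the same amino acid were set side by side, since each pair differs in compartment. Of 14 pairs of symbols that differ only in the final 1 or 2, 13 had both genes tested. The cytosolic gene had the greater log2 fold change in 11 pairs and the smaller in 2 (RARS and WARS), with a median difference of 0.27. The cysteinyl pair differed most, by 0.78, followed by the asparaginyl pair with 0.71 and the leucyl and tyrosyl pairs with 0.55 each.

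Enzymes whose symbols do not pair in this way were set side by side too. The difference in log2 fold change was 0.39 between EPRS1 and the glutamyl EARS2, 0.51 between EPRS1 and the prolyl PARS2, and -0.18 between either subunit gene, FARSA or FARSB, and the phenylalanyl FARS2.

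For the cysteinyl pair the ratio of cytosolic to mitochondrial CPM was 3.86 and 4.94 in LT4 and 2.59, 2.49 and 2.34 in control. For the tyrosyl pair it was 10.1 and 10.2 in LT4 and 7.49, 6.49 and 6.98 in control. The histidyl pair had a smaller gap, 2.71 and 2.75 in LT4 and 2.40, 2.51 and 2.52 in control. HARS1 and HARS2 had log2 fold changes of -0.07 and -0.20. In these 3 pairs both LT4 libraries lay above the controls, as in 8 of the 13 tested pairs of matching symbols. Of those 13, 0 ratios lay below the controls and 5 overlapped with them. A share over other gene pairs was not computed. The ratios of EPRS1 to EARS2 and to PARS2 also lay above the controls, and that of FARSA to FARS2 did not separate the groups. The ratio of FARSB to FARS2 lay below the controls, at 5.68 and 6.39 in LT4 and 6.46, 7.36 and 6.51 in control. HARS1 and HARS2 lie head to head on chromosome 5 and their annotated genes overlap by 437 bases on opposite strands.

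In levels per length, the cytosolic enzymes were the more abundant. In TPM, which scale counts by gene length to a sum of 1000000 per library, FARSA averaged 289 in LT4 and 316 in control, VARS1 256 in LT4 and 276 in control, and QARS1 209 in LT4 and 230 in control. AARS1, at rank 5 in the control order, averaged 255 TPM in LT4 and 192 TPM in control. The highest mitochondrial gene, HARS2, averaged 49.4 ± 9.09 TPM in LT4 and 56.0 ± 3.11 TPM in control, at rank 15 in the control order and close to NARS1 and EPRS1, from which it did not differ beyond the spread of the controls. Near the bottom stood TARS3, with 2.57 TPM in LT4 and 3.40 in control, and WARS2, with 3.53 TPM in LT4 and 2.29 in control, above VARS2 alone in the control order.

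Within pairs, the cytosolic gene had the higher TPM in control cells in 12 of 13, by a median ratio of 4.50 and up to 28.3. Summed over each class, cytosolic TPM was 2632 and 1963 in LT4 and 2238, 2261 and 1899 in control, and mitochondrial TPM was 325 and 252 in LT4 and 312, 304 and 273 in control. Neither sum separated the groups, and both were lower in LT4 library 3 than in LT4 library 1. The ratio of the sums was 8.11 and 7.80 in LT4 and 7.18, 7.45 and 6.95 in control, or 7.96 ± 0.219 in LT4 (SD, n = 2) and 7.19 ± 0.251 in control (SD, n = 3).

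**Figure D5:**
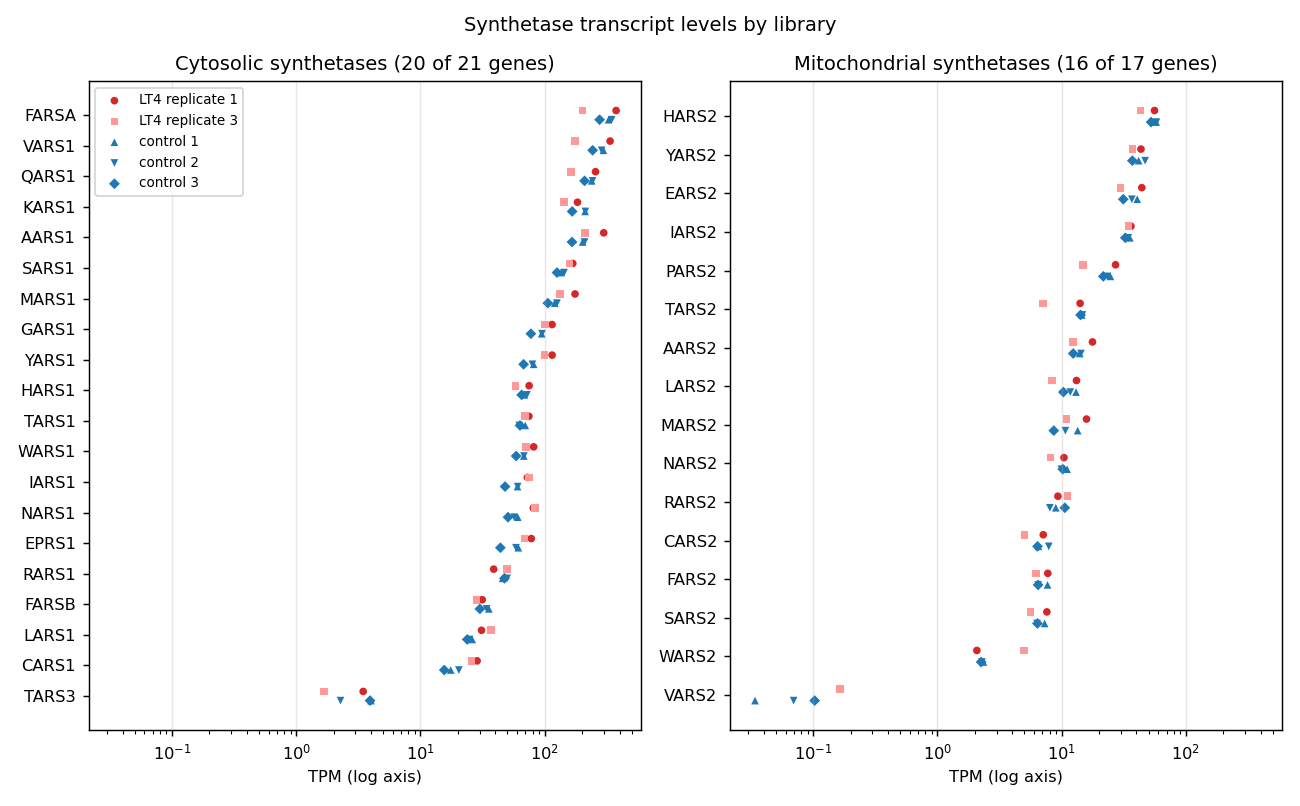
TPM of the synthetase genes in every library on a log axis, 1 gene of each class left out, ordered by the control mean, with LT4 and control libraries marked. FARSA, VARS1 and QARS1 are the highest with control means of 316, 276 and 230 TPM, and VARS2 is the lowest, its value of 0 in LT4 library 1 not being drawn.

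The cytosolic enzymes were also grouped by assembly. The 8 enzymes of the multisynthetase complex had a median log2 fold change of 0.22, with 4 above and 1 below all controls. The 13 enzymes outside it had a median of 0.20, with 8 above and 1 below. Of all genes tested, 17.3% stood above and 16.5% below all controls. The scaffold proteins of the complex had 0 of 3 called, where 0.137% of all genes were, and a median of 0.08. AIMP2 had 102 and 104 CPM in LT4 and 116, 118 and 118 CPM in control.

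By catalytic fold, the 10 cytosolic class I enzymes, which include CARS1, YARS1, LARS1, IARS1 and MARS1 and count the fused EPRS1 by its glutamyl part although its prolyl part is of class II, had a median of 0.37, with 7 above and 0 below all controls. The 11 class II enzymes had a median of 0.08, with 5 above and 2 below, against 17.3% and 16.5% of all genes. Median merged exon length was 6693 bases in class I and 4089 in class II. With the length trend removed, the medians were 0.26 for class I and 0.08 for class II. With LT4 library 1 alone they were 0.21 and 0.09, and with LT4 library 3 alone 0.35 and 0.05. The mitochondrial enzymes of these classes had medians of 0.02 for 8 class I genes and -0.06 for 8 class II genes. No test was run between these groups of genes, since genes of 1 library are not replicates.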

How the data were processed

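Polyadenylated RNA was sequenced from TRIzol-extracted HCT116 cells after stranded mRNA library preparation, per the labels' protocols. The submitters' processing notes name GRCh38, HISAT2 2.1.0, featureCounts, Subread 2.0.1, SAMtools 1.9 and fastp 0.20.0. Their order, the annotation release and the strand setting of counting were not stated there, and genes that overlap on opposite strands may share reads. Per the file headers, the deposited table holds raw counts per gene and library. It also holds TPM values, scaled by the authors so that each library sums to 1000000, which were used to compare levels between genes. The authors also deposited log2 fold changes and p-values that set each LT4 library against control, quoted as theirs. Another 2 columns of per-sample values belong to no sample analysed here and were left out.

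Sample titles gave the groups. Symbols matched 60295 of 60623 gene IDs, and positions came from GENCODE 29. Counts were tested with edgeR 4.0.16 (quasi-likelihood F test, robust dispersion, edgeR's expression filter, TMM scaling, group as the only term) in R 4.3.3, with Benjamini-Hochberg adjustment over 13833 genes at 0.05. Standard errors were derived from the log2 fold change and its F statistic. CPM are TMM-scaled, and the biological coefficient of variation was 14.6%. Limits of detection are 3 counts, and cover counting error only. Alternatives were DESeq2 1.42.0, limma 3.58.1 voom, other scalings and filters, equal depth, a length trend removed, each library left out and a replicate block. Scripts were tested on simulated data. Tables and figures used Python 3.11.15, pandas 2.3.3 and matplotlib 3.10.9.

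Members and lists were chosen with earlier results of these data known, so no list has a p of its own. Genes are named with values in every library if called in any comparison, among the 8 smallest p-values, the 3 highest or lowest fold changes of a class, a subunit pair, or serving both compartments. Values of 2 members are not reported here singly, though class counts and medians hold them.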

Additional observations from a re-analysis of the deposited data

How the results depend on the processing

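LT4 library 3 held 2281912 counts, fewer than any other library, and low genes of either class rest on few counts there. Genes called numbered 19 with the 5 libraries, and 311 with no count filter, 114 with DESeq2, 33 after removal of a length trend, 1 at an adjusted p under 0.01, and 1 to 598 when 1 library was left out, with 1 for each left-out control. Cytosolic calls were 0, and 0 to 7 when 1 library was left out (7 without LT4 library 1, 3 without LT4 library 3, 0 without a control); mitochondrial calls were 0 throughout. With the replicate block, 427 genes (3.09%) and 5 cytosolic genes were called (AARS1, CARS1, NARS1, YARS1 and MARS1), with a class difference of 0.27. Libraries of the same number correlated at 0.21 and 0.21 in their deviations from the group means, and crossed ones at -0.21 and -0.21; with 2 LT4 libraries these values mirror each other, the labels give the numbers no meaning, and whether they pair the libraries is undecided. The cytosolic median ranged over 0.13 to 0.25. The mitochondrial median was -0.084 at equal depth, and -0.11 to 0.025 with 1 library left out. The difference of the class medians was 0.13 without the length trend, 0.27 at equal depth, and 0.19 to 0.33 with 1 library left out. Cytosolic genes above all controls were 12 to 13 with 1 library left out (13 without LT4 library 1 and without LT4 library 3, where 37.1% and 33.5% of all genes were above, against 17.3% with all libraries), and mitochondrial genes below them 3 to 8 (8 without LT4 library 1, where 37.2% of all genes were below, and 5 without LT4 library 3, where 33.1% were); these alternatives for counts against the control range were chosen after seeing the data. Of 558 recomputed values of 35 tested genes, 510 kept sign and side of the threshold, 15 (9 genes) newly passed it and 33 (14 genes) changed sign; the cause was not tested. The sign changes were, in log2 fold change, for EARS2 -0.043, FARS2 -0.025, PARS2 0.027, SARS2 0.061 and YARS2 0.061 without the length trend, for EARS2 -0.025, FARS2 -0.028 and IARS2 -0.016 with no filter, for FARS2 -0.053 under the block, -0.00010 with DESeq2 and -0.038 at equal depth, for SARS2 0.037 with library totals and 0.013 with voom, and for YARS2 0.014 under the block. With 1 library left out the log2 fold changes ran over -0.028 to 0.25 for AARS2, -0.18 to 0.15 for EARS2, -0.055 to 0.063 for FARS2, -0.55 to 0.11 for FARSA, -0.053 to 0.12 for IARS2, -0.39 to 0.035 for LARS2, -0.54 to 0.089 for PARS2, -0.41 to 0.020 for QARS1, -0.43 to 0.16 for RARS1, -0.12 to 0.37 for RARS2, -0.15 to 0.053 for SARS2, -0.55 to 0.15 for VARS1, -0.28 to 1.22 for WARS2 and -0.14 to 0.021 for YARS2.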

Other observations

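The genes that work next to the synthetases were counted in the same comparison. It called 0.137% of all genes, so 0 calls in a short list show little. XPOT, the exporter that carries tRNA out of the nucleus, had 52.8 and 52.2 CPM in LT4 and 36.1, 30.4 and 35.3 CPM in control, a log2 fold change of 0.63 (edgeR adjusted p = 0.109). In LT4 library 1 alone it rose by 0.64 on the log2 scale (edgeR adjusted p = 0.0169), and in LT4 library 3 alone the value was 0.62 (edgeR adjusted p = 0.061). The other tested delivery genes, EEF1A1, EEF1B2 and EEF1D, were without a call, and EEF1G was listed at 0 in all libraries. Of 5 tested genes that modify or deliver mitochondrial aminoacyl-tRNA (GATB, GATC, QRSL1, MTFMT and TUFM) 0 were called, with a median log2 fold change of -0.15. Of 7 mitochondrial translation factors 0 were called, with a median of -0.17. At an unadjusted p under 0.05, 1 of these factors was higher, GFM1, and 1 lower, GFM2. Of all genes, 8.58% were higher and 5.28% lower at that level. In a list of 7, 1 gene each way does not stand apart from these shares. GFM1, an elongation factor, had 14.9 and 21.8 CPM in LT4 and 12.1, 13.9 and 12.3 CPM in control, while GFM2, a recycling factor, had 9.60 and 8.70 CPM in LT4 and 13, 11.5 and 14.1 CPM in control. Of 4 tested genes of tRNA editing and selenocysteine charging 0 were called, with a median of -0.03.

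ATF4 itself had 719 and 701 CPM in LT4 and 507, 519 and 515 CPM in control, a log2 fold change of 0.47 (edgeR adjusted p = 0.124). Of 24 tested genes of the integrated stress response, a list chosen with earlier results of these libraries known, 6 rose and 0 fell by edgeR's test, where 0.123% of all genes rose and 0.0145% fell, with a median log2 fold change of 0.62. CHAC1, a glutathione-degrading enzyme of that response, rose to 48.7 and 49.6 CPM in LT4, against 13.1, 12.6 and 12.2 CPM in control, a log2 fold change of 1.96. Its change was larger than that of every synthetase gene, the highest of which was 0.58 for CARS1.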
